A study of Mus musculus with 4 samples.

Results

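The genes described here are 10 genes of autophagy: the ATG8 family genes Gabarap, Gabarapl1, Gabarapl2, Map1lc3a and Map1lc3b, the cargo receptor genes Sqstm1 and Nbr1, and the initiation genes Becn1, Wipi1 and Ulk1. They were chosen by name, and every probe set that the array annotation gives to 1 of them alone was taken. This gave 19 probe sets of 8 genes, out of 45037 probe sets tested and 17097 genes with a single-gene probe set. Map1lc3b is not named in the annotation used here, and the 1 probe set that lists Sqstm1 lists another gene with it, so no value is given for either. Total RNA of dorsal skin was measured on 4 Affymetrix mouse arrays. A probe set is a group of short probes that together measure 1 transcript. Control 1 and Control 2 came from male C3H mice, aged 8 weeks at the start, that were given Milli-Q water on the skin. TCQA 1 and TCQA 2 came from mice of the same strain, sex and age that were given TCQA (a tri-O-caffeoylquinic acid, a plant phenolic) at 1%, and in both groups the dorsal hair had been removed beforehand to bring the follicles into the growth phase. The paper describes 7 days of acclimation and a daily application for 30 days. The labels place the samples at day 30, and the paper dates the collection to day 37. The study had 5 mice in each group, and it is not told how many of them gave RNA to an array, so the p-values measure only the spread between arrays, which may be technical.

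Autophagy is the process by which a cell encloses part of its content in a double membrane, the autophagosome, and delivers it to the lysosome. The ULK1 kinase complex starts the process, the Beclin 1 complex makes the lipid phosphatidylinositol 3-phosphate at the forming membrane, WIPI proteins bind that lipid, and the ATG8 proteins (the LC3 and GABARAP proteins) are attached to the membrane, where they bind receptors such as p62 and NBR1 that carry cargo. In skin, autophagy is active in differentiating keratinocytes and in hair follicles.

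Most of these probe sets were highest on the array Control 1. Of the 19 probe sets, 13 were highest on Control 1, and 8 of them, from Gabarap, Gabarapl2, Map1lc3a, Nbr1, Becn1 and Ulk1, stood there at least 2-fold above each of the other 3 arrays. The same held for 28.0% (highest) and 15.9% (at least 2-fold) of all probe sets, and Control 1 was lowest in 4 of the 19 against 58.3% of all. No member passed an adjusted p of 0.05 with TCQA, and neither did any of all 45037 probe sets (0%), the smallest adjusted p by limma being 0.92. The log2 fold change, TCQA minus control, ranged over the 19 probe sets from -2.56 (Gabarap) to 0.89 (1 of 6 probe sets of Wipi1), and without Control 1 from -0.74 to 0.59.

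The arrays differed in measures that do not involve these genes. The 18 hybridization controls, bacterial and phage targets added to the labelled sample, had median log2 values of 6.71 for Control 1, 10.4 for Control 2, 10.4 for TCQA 1 and 10.8 for TCQA 2. The 6 control probe sets of actin and Gapdh went the other way, at 9.07, 3.64, 3.37 and 3.33 in the same order. The 3′ minus 5′ difference of actin, a measure of RNA quality, was 2.53 log2 units on Control 1 and 1.01, 0.841 and 0.784 on the other arrays, while that of Gapdh was 2.09, 2.18, 1.99 and 1.67. Probes for sequences that mouse RNA should not match (22 nonspecific probe sets that cover a wide range of GC content) had medians of 1.08, 1.24, 1.33 and 1.64. A further nonspecific probe set, made of G and C alone, read 5.23, 6.41, 7.14 and 7.53, and it is left out wherever the members are set against nonspecific probe sets below. The labelled tissue was checked with its markers. The 9 keratinocyte markers had a median of 8.16 on Control 1 and of 1.95, 1.98 and 1.94 on the other arrays. Control 1 was highest in 8 of them and lowest for Flg (1.21, 1.34, 1.40 and 1.94). The epidermal keratins Krt14 (8.67, 2.86, 2.37 and 2.70) and Krt10 (7.99, 1.93, 1.98 and 2.23) were at low values on 3 of the 4 arrays. Krt5 was less low there (9.83, 4.91, 5.02 and 4.52), and Lor was low on all 4 (1.58, 1.26, 1.35 and 1.33). Markers of skeletal muscle, which lies under the dorsal skin, had a median over 10 genes of 10.5, 2.82, 2.67 and 3.26, highest on Control 1 in all 10, and 12 genes of the cytosolic ribosome had 9.67, 4.30, 4.07 and 2.93. The 6 fibroblast markers (4.34, 2.46, 2.49 and 2.43) and the 4 measured adipocyte markers (6.85, 2.63, 2.49 and 2.76) were also highest there by their medians. By gene, this held for 4 of the 6 and 3 of the 4. The median of the 5 melanocyte markers was lowest on Control 1 (2.08, 2.75, 2.97 and 3.04). By gene, this did not hold for Mlana (1.90 on Control 1 and 1.87 on TCQA 2). The 6 probe sets of the poly-A control dap also had their highest median on Control 1 (5.43, 1.45, 1.36 and 1.78). Several of these measures were thus far higher on Control 1 than elsewhere, as were 8 of the 19 probe sets below. The Gapdh 3′ minus 5′ difference and the nonspecific medians did not have that pattern, and neither did the other members. The medians of the 6 immune cell markers (2.48, 2.34, 2.38 and 2.60) and the 3 endothelial markers (2.93, 2.42, 2.54 and 2.27) also lacked it. By gene, Control 1 was highest in 2 of the 6 and 1 of the 3. The 2 measured red blood cell markers had medians of 4.95, 3.90, 3.59 and 3.40, with Control 1 highest in 1. The part of these measures in the values below was not tested. In bulk RNA, fewer cells of a type, less RNA per cell and a difference between arrays cannot be told apart by a marker list. The ribosome genes, which every cell uses, were highest on Control 1 in all 12.

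**Figure D1:**
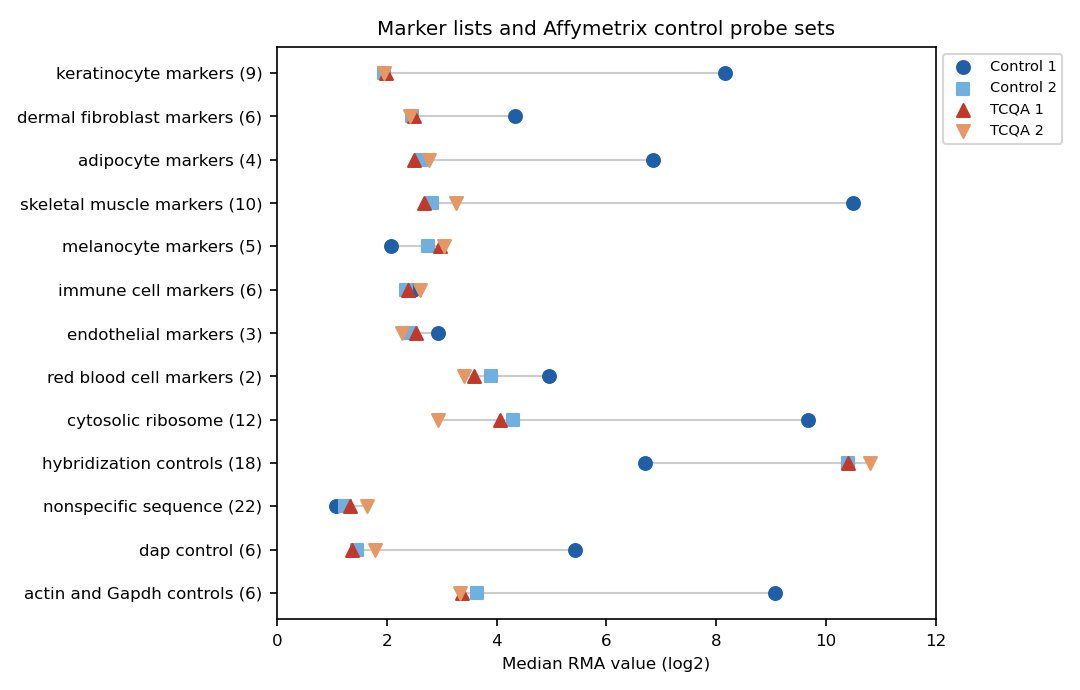
Median log2 value of each list of cell type markers and of each set of Affymetrix controls, 1 row per list with its number of genes or probe sets, and 1 point per array joined by a line over their range. Hybridization controls are lowest on Control 1 (6.71), while the actin and Gapdh controls (9.07) and the muscle, ribosome and keratinocyte lists are highest there.

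Stretches of the reference genome in front of 4 of the genes are shown because these genes stand at the ends of what was measured: Gabarap had the lowest fold change, Gabarapl1 had a bright probe set that held its value on every array, and the probe sets of Wipi1 and Ulk1 differed in direction. Each is the 250 bases before the RefSeq start in assembly GRCm38.p6, read 5′ to 3′ on the gene's strand, with the GC box letters GGGCGG or CCGCCC (the same box on either strand) in capitals. They lie at chr11:69991120-69991369 (plus strand, Gabarap), chr6:129532942-129533191 (plus, Gabarapl1), chr11:109611390-109611639 (minus, Wipi1) and chr5:110810082-110810331 (minus, Ulk1).
Gabarap: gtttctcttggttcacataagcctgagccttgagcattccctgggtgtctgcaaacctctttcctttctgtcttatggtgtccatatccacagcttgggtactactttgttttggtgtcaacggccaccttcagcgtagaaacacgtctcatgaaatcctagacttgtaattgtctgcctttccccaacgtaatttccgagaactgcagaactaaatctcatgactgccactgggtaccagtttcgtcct
Gabarapl1: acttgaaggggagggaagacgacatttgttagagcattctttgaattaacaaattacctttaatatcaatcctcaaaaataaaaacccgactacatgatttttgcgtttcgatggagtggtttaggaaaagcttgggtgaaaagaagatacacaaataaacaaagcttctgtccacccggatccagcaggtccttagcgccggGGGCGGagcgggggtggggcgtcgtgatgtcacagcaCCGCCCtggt
Wipi1: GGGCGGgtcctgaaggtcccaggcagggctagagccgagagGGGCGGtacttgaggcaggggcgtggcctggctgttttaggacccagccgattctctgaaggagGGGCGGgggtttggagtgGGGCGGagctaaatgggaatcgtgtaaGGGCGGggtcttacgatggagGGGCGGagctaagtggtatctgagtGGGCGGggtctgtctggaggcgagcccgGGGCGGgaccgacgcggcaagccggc
Ulk1: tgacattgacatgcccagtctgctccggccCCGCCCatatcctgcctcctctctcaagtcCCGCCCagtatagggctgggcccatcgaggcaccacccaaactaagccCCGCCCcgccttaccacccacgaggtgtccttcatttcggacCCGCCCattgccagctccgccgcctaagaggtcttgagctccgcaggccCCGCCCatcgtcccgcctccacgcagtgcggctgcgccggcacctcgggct
Gabarap had 0 boxes and a GC content of 46.4%, Gabarapl1 had 2 boxes at 46.8%, Wipi1 had 8 and Ulk1 had 5, both at 67.2%. Windows with 5 or more boxes made up 1.93% of the 32851 windows of the table, and those with 8 or more 0.155%. The limits 5 and 8 are the counts of Ulk1 and Wipi1 themselves. The median GC content of all windows was 52.4%, and windows of like GC content were not compared. Over the 9 windows of the 8 listed genes that the table holds, 6 had a GC box (66.7%) against 32.7% of all windows, and 0 held CACGTG, the letters bound by the lysosomal regulator TFEB among others, which 6.02% of all windows held. The table has no entry for Map1lc3a and Becn1. A match is only a description of the letters, and no match says only that they are not in this window.

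Gabarap encodes a GABARAP protein that is attached to the growing autophagosome. Its 1 probe set (1416937_PM_at) had a log2 value of 6.99 for Control 1, 2.28 for Control 2, 2.00 for TCQA 1 and 2.14 for TCQA 2. Both TCQA arrays lay below both control arrays, but Control 2 was close to them and far from Control 1. The mean was 4.63 ± 3.33 (SD, n = 2) in control and 2.07 ± 0.097 (SD, n = 2) in TCQA skin. The fold change of -2.56 (SE 1.60, 95% confidence interval -6.83 to 1.70) had an adjusted p of 0.92. Without Control 1 it was -0.21 (95% confidence interval -0.93 to 0.51). Apart from Control 1, no array had it above the range of the 22 nonspecific probe sets. On the rank scale the probe set stood at percentile 97.5 of all probe sets on Control 1 and at 38.8, 27.4 and 33.9 on the others.

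Gabarapl1 encodes a close relative of the GABARAP protein. The brighter of its probe sets (1416419_PM_s_at) read 5.23, 5.06, 4.95 and 5.05 on Control 1, Control 2, TCQA 1 and TCQA 2. It held nearly the same log2 value on all 4 arrays, with the TCQA arrays below the control arrays by small steps. The means were 5.14 ± 0.123 (SD, n = 2) and 5.00 ± 0.0685 (SD, n = 2). The fold change was -0.15 (SE 0.33, 95% confidence interval -1.01 to 0.72, adjusted p = 0.94), and it was 0.62 after a further quantile normalization, since on the rank scale Control 1 was the lowest array (percentile 91.2 against 98.0, 97.6 and 98.4). The other probe set (1416418_PM_at), made from the same target record, read 2.32, 1.42, 1.88 and 2.11. Here the TCQA arrays lay between the control arrays, with a fold change of 0.12 (SE 0.44, adjusted p = 0.97) that was 0.57 without Control 1 and -0.0021 after quantile normalization.

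Gabarapl2 encodes the ATG8 protein also known as GATE-16. Its 1 probe set (1423187_PM_at) read 5.28 for Control 1, 3.50 for Control 2, 3.56 for TCQA 1 and 2.96 for TCQA 2. Control 2 lay between the TCQA arrays, so the groups overlapped. The means were 4.39 ± 1.26 (SD, n = 2) and 3.26 ± 0.430 (SD, n = 2), and the fold change of -1.13 (SE 0.70, 95% confidence interval -3.00 to 0.74, adjusted p = 0.92) was -0.24 without Control 1.

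Map1lc3a encodes an LC3 protein, whose lipid-bound form marks autophagosomes. Its probe set 1447883_PM_x_at read 8.88 for Control 1, 4.64 for Control 2, 4.61 for TCQA 1 and 4.98 for TCQA 2. Control 1 stood alone, and Control 2 lay between the TCQA arrays. The means of 6.76 ± 3.0 (SD, n = 2) and 4.79 ± 0.263 (SD, n = 2) gave a fold change of -1.97 (SE 1.46, adjusted p = 0.92), which was 0.15 without Control 1 (95% confidence interval -0.64 to 0.94). The second probe set (1451290_PM_at) read 5.96, 3.87, 4.23 and 3.94, with a fold change of -0.83 (SE 0.77, adjusted p = 0.92) that was 0.22 without Control 1 and 0.00097 after quantile normalization. Both probe sets of Map1lc3a thus had the same order of signs, negative with Control 1 and positive without it.

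**Figure D2:**
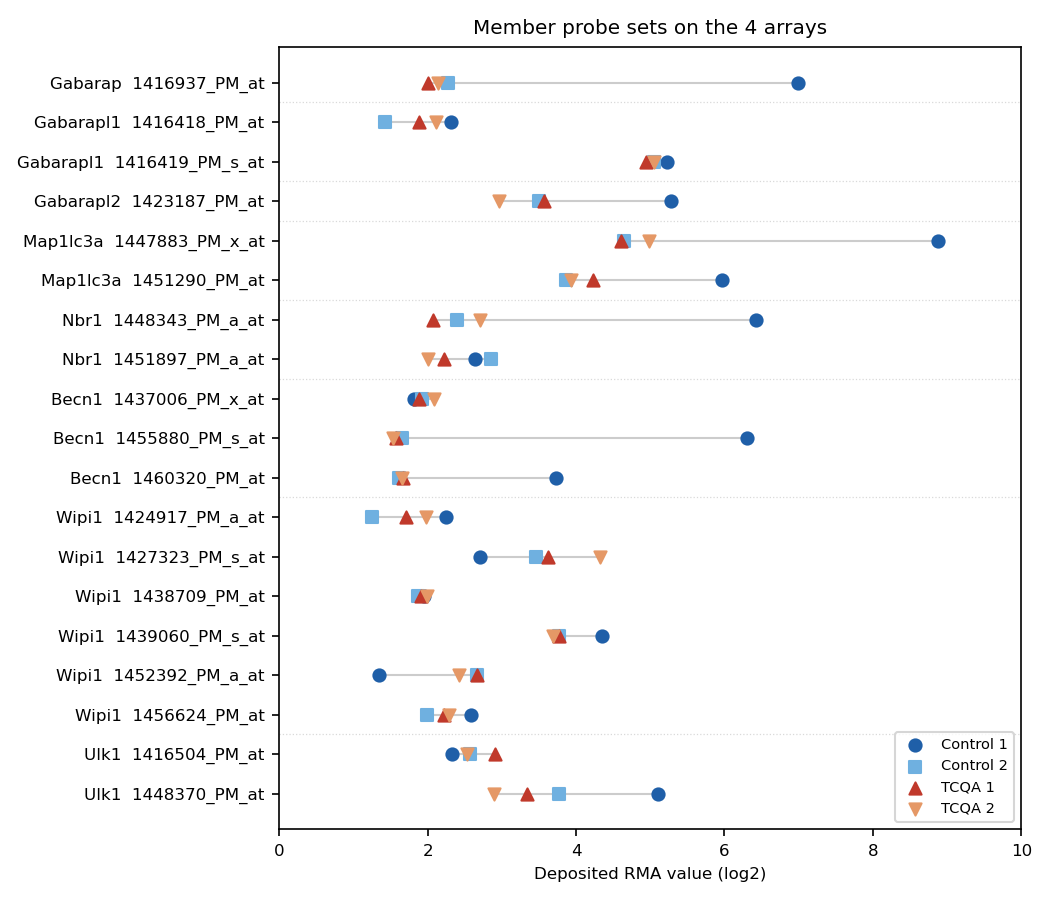
Log2 value of each of the 19 probe sets on the 4 arrays, 1 point per array, ordered by gene. Control 1 stands above the other 3 arrays in 13 probe sets, as in Gabarap (6.99 against 2.00 to 2.28), while the points of Gabarapl1 1416419_PM_s_at lie between 4.95 and 5.23.

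Of the receptors, Nbr1 encodes a protein that binds ubiquitin on cargo and ATG8 proteins on the membrane. Its probe set 1448343_PM_a_at read 6.42 for Control 1, 2.40 for Control 2, 2.08 for TCQA 1 and 2.70 for TCQA 2. Control 2 again lay between the TCQA arrays, and the fold change of -2.02 (SE 1.39, adjusted p = 0.92) was -0.01 without Control 1. The second probe set (1451897_PM_a_at) was not high on Control 1: it read 2.64 and 2.86 on the control arrays against 2.22 and 2.01 on the TCQA arrays. Both TCQA arrays lay below both control arrays whichever control array was used. The means were 2.75 ± 0.157 (SD, n = 2) and 2.12 ± 0.151 (SD, n = 2), and the fold change of -0.63 (SE 0.33, 95% confidence interval -1.52 to 0.26) had an unadjusted p of 0.123 and an adjusted p of 0.92 by limma. Without Control 1 it was -0.74 (95% confidence interval -1.48 to -0.0070, adjusted p = 1.00). This probe set exceeded each of the 22 nonspecific probe sets on both control arrays and did not on either TCQA array. The highest of the 22 was itself higher on the TCQA arrays (2.98 and 3.40) than on the control arrays (2.31 and 2.62). The control values of 2.64 and 2.86 lay below both TCQA limits.

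Ulk1 encodes the kinase that starts autophagy under the control of nutrient signals. Its probe set 1448370_PM_at read 5.11 for Control 1, 3.77 for Control 2, 3.35 for TCQA 1 and 2.89 for TCQA 2. Both TCQA arrays lay below both control arrays, and Control 2 was closer to TCQA 1 than to Control 1. The means were 4.44 ± 0.946 (SD, n = 2) and 3.12 ± 0.320 (SD, n = 2). The fold change of -1.32 (SE 0.57, 95% confidence interval -2.83 to 0.19) had the lowest unadjusted p of the 19 probe sets (0.0735, adjusted p = 0.92 by limma), and it was -0.65 without Control 1 (95% confidence interval -1.48 to 0.18). The other probe set (1416504_PM_at), made from the same target record, read 2.33, 2.57, 2.91 and 2.54. It had the opposite sign, 0.27 (SE 0.35, adjusted p = 0.92), and 0.15 without Control 1, with Control 2 between the TCQA arrays.

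Becn1 encodes Beclin 1, the scaffold of the lipid kinase complex. Its 3 probe sets did not move alike. The probe set 1455880_PM_s_at read 6.31 for Control 1, 1.66 for Control 2, 1.58 for TCQA 1 and 1.54 for TCQA 2. Its fold change was -2.42 (SE 1.58, 95% confidence interval -6.63 to 1.79, adjusted p = 0.92), and its percentile on the array fell from 95.8 on Control 1 to 12.7, 10.6 and 7.49. The probe set 1437006_PM_x_at, from the same target record, read 1.81, 1.92, 1.89 and 2.08. It exceeded the range of the 22 nonspecific probe sets on no array, with a fold change of 0.12 (SE 0.33, adjusted p = 0.96) that was -0.012 after quantile normalization. The probe set 1460320_PM_at lay between them in pattern, at 3.73, 1.61, 1.67 and 1.66 and a fold change of -1.01 (SE 0.77, adjusted p = 0.92). Over the 3 probe sets the fold changes spanned 2.54 log2 units, and without Control 1 they spanned 0.158, from -0.10 to 0.06. On Control 2, TCQA 1 and TCQA 2 none of the 3 probe sets exceeded the range of the 22 nonspecific probe sets, so the smaller span is one between values at background and says nothing of agreement on Becn1.

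Wipi1 encodes a protein that binds phosphatidylinositol 3-phosphate on the forming membrane, and it had the most probe sets. The probe set 1427323_PM_s_at read 2.70 for Control 1, 3.46 for Control 2, 3.62 for TCQA 1 and 4.32 for TCQA 2. Of the 19, this probe set alone had each TCQA array above each control array, although Control 2 was closer to TCQA 1 than to Control 1. The means were 3.08 ± 0.533 (SD, n = 2) and 3.97 ± 0.497 (SD, n = 2), and the fold change of 0.89 (SE 0.47, 95% confidence interval -0.36 to 2.13, adjusted p = 0.92) was 0.51 without Control 1 (95% confidence interval -0.46 to 1.49). The probe set 1452392_PM_a_at, which shares its target record, read 1.35, 2.66, 2.67 and 2.42. It was low on Control 1 and nearly level on the other arrays, with a fold change of 0.54 (SE 0.55, adjusted p = 0.92) and of -0.12 without Control 1.

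The other 4 probe sets of Wipi1 had fold changes between -0.33 and 0.10. The probe set 1439060_PM_s_at read 4.35, 3.78, 3.78 and 3.70, with a fold change of -0.33 (SE 0.37) that was -0.04 without Control 1 and 0.053 after quantile normalization. On the rank scale its 4 arrays were nearly equal, at percentiles 85.3, 85.8, 86.1 and 86.5. The probe set 1456624_PM_at, of the same target record, read 2.59, 1.99, 2.22 and 2.29. It had a fold change of -0.04 (SE 0.38), and of 0.26 without Control 1. The probe set 1424917_PM_a_at read 2.25, 1.25, 1.71 and 1.98, and its fold change of 0.10 (SE 0.47) was 0.59 without Control 1 (95% confidence interval -0.16 to 1.35) and -0.04 after quantile normalization. It too exceeded the range of the 22 nonspecific probe sets on no array. The probe set 1438709_PM_at read 1.96, 1.88, 1.91 and 2.00, not above the range of the 22 nonspecific probe sets on any array, and its fold change of 0.04 (SE 0.32) was -0.093 after quantile normalization and -0.052 after centring on the median.

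**Figure D3:**
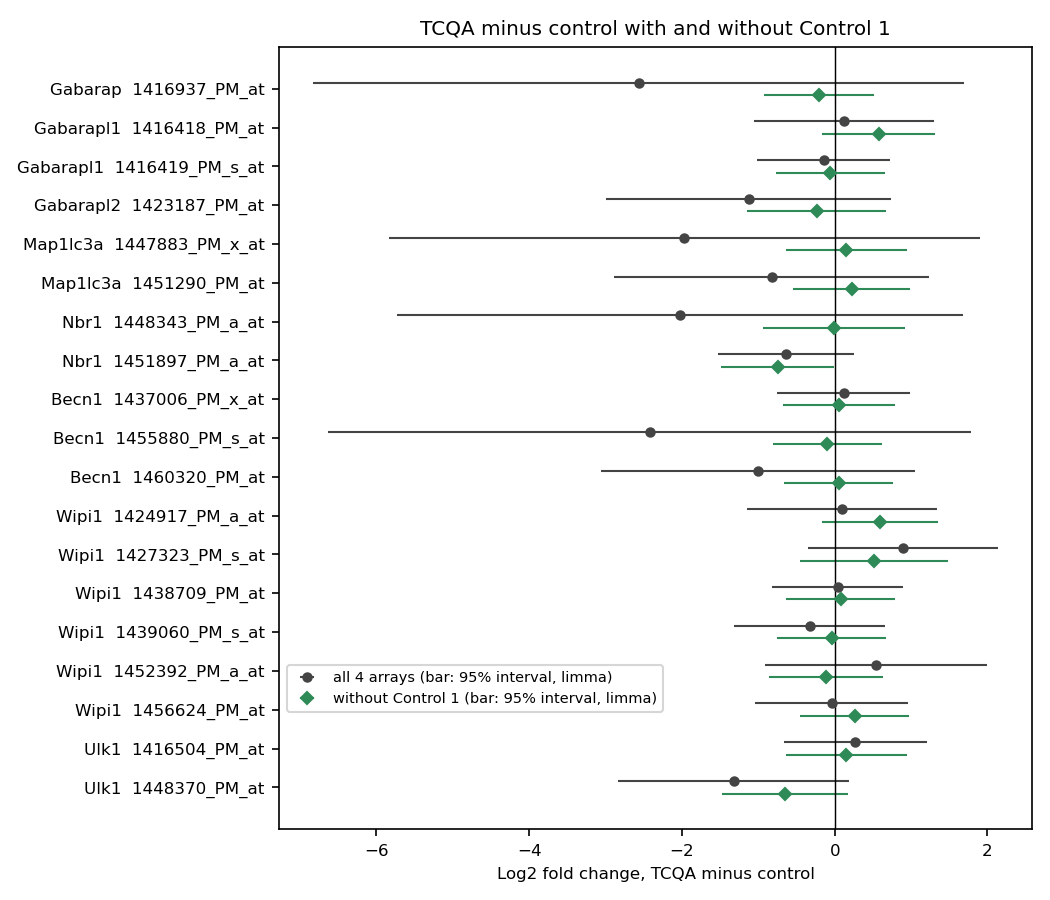
Log2 fold change (TCQA minus control) of each of the 19 probe sets with its 95% confidence interval, with all 4 arrays and without Control 1. Every interval with all 4 arrays includes 0, and the fold changes without Control 1 lie between -0.74 and 0.59.

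Agreement within a gene was read for the 6 genes with several probe sets. With all 4 arrays, the signs were the same within Map1lc3a and Nbr1, and 4 genes (Gabarapl1, Becn1, Wipi1 and Ulk1) held both signs. Without Control 1, 4 genes again held both signs, among them Wipi1, with 2 negative and 4 positive fold changes from -0.12 to 0.59. The probe sets of 1 gene are not independent measurements, since 10 of the 19 were made from a target record that another probe set of the gene shares. Per the array's naming, 4 probe sets (_s_) can match more than 1 transcript, 4 (_a_) several transcripts of 1 gene, and 2 (_x_) other sequences in part. Of the 19, 5 exceeded each of the 22 nonspecific probe sets on all 4 arrays, 7 did so on Control 1 only, and 3 on none. The highest of the 22, which sets this limit, differed by array. It was lowest for Control 1 (2.31) and highest for TCQA 2 (3.40), with Control 2 (2.62) and TCQA 1 (2.98) between. Ulk1 1416504_PM_at thus counts as above on Control 1 only, although Control 1 was its lowest array (2.33) and TCQA 1 its highest (2.91). These counts were not set against all probe sets.

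**Figure D4:**
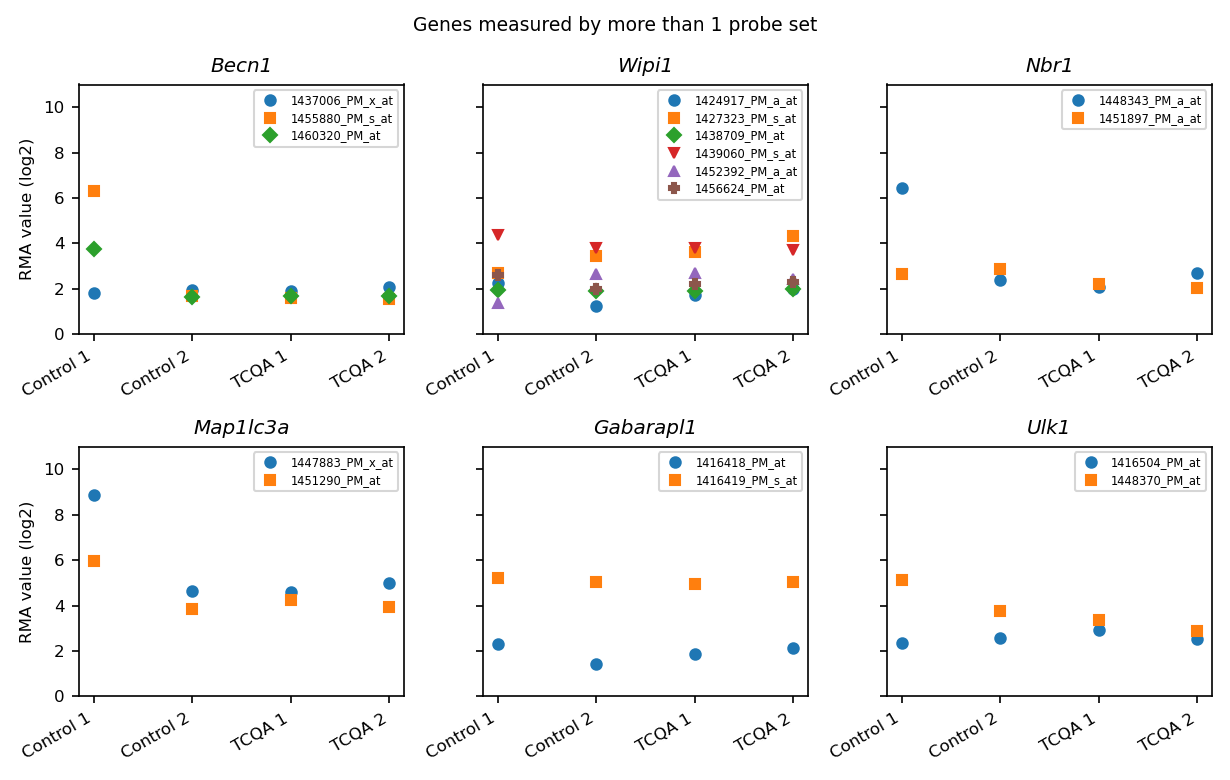
Log2 value of every probe set of the 6 genes with several probe sets, 1 panel per gene, 1 marker per probe set and the 4 arrays along the horizontal axis. In Becn1, 1455880_PM_s_at (6.31) and 1460320_PM_at (3.73) are high on Control 1 and the third probe set (1.81) is not, while on the other arrays every Becn1 probe set lies between 1.54 and 2.08.

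Counts of the 19 were read against the share of all probe sets. Both TCQA arrays lay below both control arrays in 5 of the 19 (Gabarap, 1 of Gabarapl1, 1 of Nbr1, 1 of Becn1 and 1 of Ulk1), against 10.9% of all, and above in 1 (Wipi1), against 17.9%. The mean was 2-fold or more lower with TCQA in 7 of the 19, against 11.3% of all, and 2-fold or more higher in 0, against 1.04%. Each of these 7 was highest on Control 1, and without that array 0 were 2-fold or more lower (0.375% of all) and 0 higher (0.160%). At a change of 2-fold and an unadjusted limma p up to 0.05, 0 members were lower (0.122% of all) and 0 higher (0.135%). The methods of the study pair the 2-fold change with an analysis of variance, and by the unmoderated test of the same model 0 members were lower (0.0311% of all) and 0 higher (0.0266%). At an unadjusted p under 0.05 limma called 0 members, against 0.313% of all, and the unmoderated test called 0 members, against 1.67% of all.

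The outcome turned on which control array was compared. Without Control 2, 8 members were called lower at an adjusted p under 0.05, against 16.1% of all probe sets, and 1 was called higher, against 7.34%. The lower ones were Gabarap (fold change -4.92, adjusted p = 7.07e-04), Gabarapl2, both probe sets of Map1lc3a, Nbr1 1448343_PM_a_at, 2 probe sets of Becn1 and Ulk1 1448370_PM_at, and the higher one was Wipi1 1452392_PM_a_at (1.20, adjusted p = 0.0418). In that fit the lone control array is assumed to vary like the TCQA arrays. Without Control 1, 0 members were called and every adjusted p was 1.00. Control 2 lay between the TCQA arrays in 7 of the 19 probe sets (39.0% of all), above both in 5 (33.8% of all) and below both in 7 (27.2% of all). The median fold change of the 19 was -0.33 (12 negative, 7 positive) beside 0.12 over all probe sets, of which 38.9% were negative. Without Control 1 it was 0.05 (9 negative, 10 positive) beside -0.02, with 53.3% of all probe sets negative. With 2 arrays in each group, the smallest p that an exact permutation test allows is 0.333.

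The other genes of the pathway were given by 7 lists with 85 genes, of which 76 had a single-gene probe set. Each gene is represented by its probe set with the highest mean over the 4 arrays, a choice in which Control 1 counts. Of the 76, 56 had a negative and 20 a positive fold change (73.7% negative, against 43.8% of all 17097 genes). The median was -0.40 beside 0.08 over all genes. Without Control 1, 42 were negative and 34 positive (55.3% negative, against 54.7% of all genes), with a median of -0.03 beside -0.03 over all genes. The counts of the single lists below are to be read against these shares of all genes. No gene of the lists passed an adjusted p of 0.05, or a change of 2-fold with an unadjusted limma p up to 0.05. The mean was 2-fold or more lower with TCQA in 22 of the 76 (28.9%), against 14.5% of all genes, and without Control 1 in 1 (1.32%), against 0.351% of all genes.

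In the ULK complex, 3 of 5 genes were negative and the median was -0.04, and without Control 1 they were 1 of 5 and 0.18. The kinase gene Ulk2 read 4.79, 3.04, 3.38 and 3.55 on Control 1, Control 2, TCQA 1 and TCQA 2, with a fold change of -0.45 that was 0.42 without Control 1. In the lipid kinase complex, 6 of 7 measured genes were negative (median -0.27), and 3 of 7 without Control 1 (median 0.05). The inhibitor gene Rubcn had the lowest fold change there (-1.14, and -0.57 without Control 1), reading 4.31, 3.17, 2.63 and 2.58. Among genes that act with the lipid or supply membrane, 8 of 10 were negative (median -0.17), and 6 of 10 without Control 1 (median -0.09). Vmp1, for a membrane protein needed to form autophagosomes, read 5.54, 2.88, 2.43 and 2.07, with a fold change of -1.96 and of -0.62 without Control 1. Tmem41b, for a related lipid scramblase, was the gene 2-fold or more lower without Control 1: it read 3.16, 3.85, 3.34 and 2.02, with fold changes of -0.83 and -1.17, and TCQA 2 alone was far below the other arrays.

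In the conjugation list, the enzymes that attach ATG8 proteins to lipid, 8 of 10 measured genes were negative (median -0.20), and 5 of 10 without Control 1 (median -0.01). Atg3, whose enzyme makes the last transfer, read 5.69, 2.36, 2.12 and 1.96, with a fold change of -1.99 that was -0.32 without Control 1. Of the 12 measured receptor genes 8 were negative, and their median of -1.21 was the lowest of the 7 lists. Without Control 1, 9 of the 12 were negative and the median was -0.03. Retreg1, for a receptor of the endoplasmic reticulum, read 7.74, 3.26, 2.13 and 2.41, with a fold change of -3.23 and of -0.99 without Control 1. Bnip3, for a mitochondrial receptor, read 7.31, 3.23, 3.19 and 2.27, with -2.54 and -0.50. Among genes of fusion and the lysosome, 14 of 17 were negative (median -0.76), and 9 of 17 without Control 1 (median -0.02). The protease gene Ctsb read 6.71, 2.63, 2.65 and 2.63, high on Control 1 alone. Of 15 measured regulators, 9 were negative with Control 1 (median -0.20) and 9 without it (median -0.07). Prkaa2, for a catalytic subunit of the energy sensor AMPK, read 6.18, 2.52, 2.23 and 2.24.

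**Figure D5:**
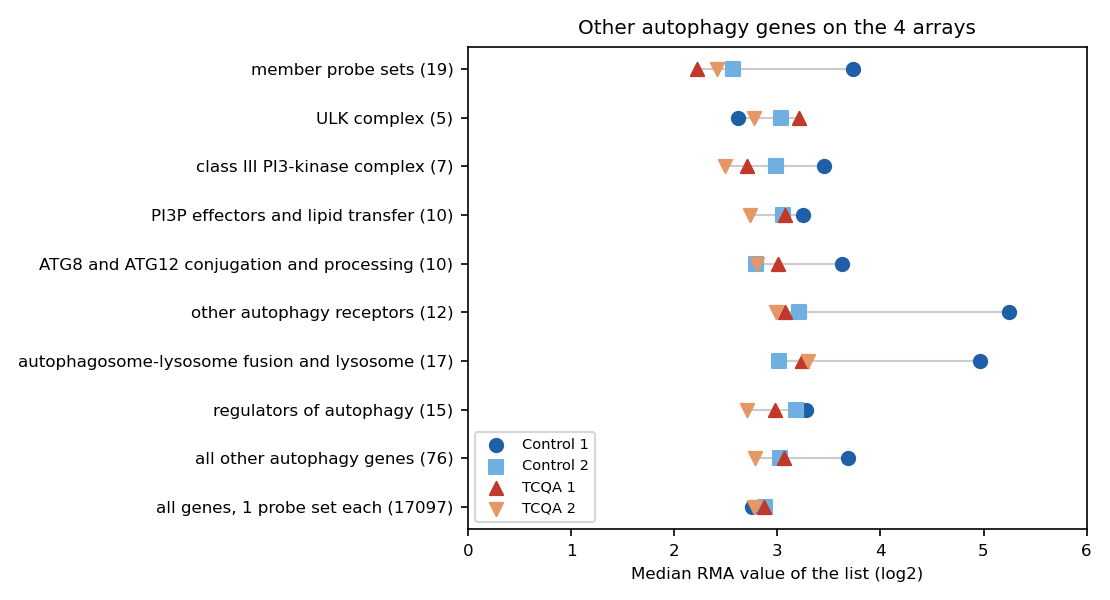
Median log2 value of the 19 member probe sets, of each list of other autophagy genes, of the 76 genes together and of all 17097 genes, 1 row per list and 1 point per array joined by a line over their range. The receptor list has a median of 5.25 on Control 1 and of 3.21, 3.08 and 2.99 on Control 2, TCQA 1 and TCQA 2, and all genes together lie between 2.75 and 2.88.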

How the data were processed

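The authors deposited log2 values made by RMA, 1 per probe set and array. For the analysis, their methods cite Transcriptome Analysis Console 4.0.1. RMA corrects background, normalizes and summarises probes. Whether the 4 arrays were normalized together is not given in the sources used here. The table holds 45141 probe sets, and 104 Affymetrix controls were left out of the tests. Of the other 45037, 28898 name 1 gene in the platform annotation, and 28689 of these have a RefSeq identifier.

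Groups were compared on the log2 values in limma 3.58.1 under R 4.3.3, by lmFit followed by eBayes with 2 residual degrees of freedom, a step tested on simulated data. Tests were two-sided, and p-values were adjusted by Benjamini-Hochberg over all 45037 probe sets. No dim probe set was removed. The members, the gene lists and the alternatives were chosen with earlier results of these data known. Named genes were every member and, from each list, some of the 3 genes with the largest absolute fold change, not always the largest first. The promoters and their motifs, and the comparison with nonspecific probe sets were chosen after values were seen. The number of arrays limits the precision. The methods speak of triplicate experiments, whereas each group has 2 arrays here.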

Additional observations from a re-analysis of the deposited data

Results flagged for a closer look

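The nonspecific probe sets, which were not tested between the groups, read higher on the TCQA arrays than on the control arrays. Their median log2 value over 22 probe sets was 1.33 on TCQA 1 and 1.64 on TCQA 2, against 1.08 on Control 1 and 1.24 on Control 2. All 22 were higher on both TCQA arrays than on both control arrays. On the arrays other than Control 1, many members did not exceed the range of these 22 probe sets. They were Gabarap 1416937_PM_at, Gabarapl1 1416418_PM_at, Nbr1 1448343_PM_a_at, Ulk1 1416504_PM_at, every probe set of Becn1 and several of Wipi1.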

How the results depend on the processing

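Leaving out 1 array at a time gave between 0 and 10538 called probe sets over the whole table and between 0 and 9 among the 19, the highest of both without Control 2. It gave 0 to 8 members lower and 0 to 2 higher at 2-fold and an unadjusted p up to 0.05, the highest without Control 2 (17.7% and 12.3% of all). Without overlap between the groups it gave 5 to 14 lower, the highest without Control 2 (29.7% of all), and 3 to 7 higher, the highest without Control 1 (27.2% of all). Members higher without overlap numbered 3 after quantile normalization (18.6% of all) and 2 after centring on the median (17.7%). The median fold change of the members (-0.33) was -1.65 with the brightest probe set per gene. It was -1.22 when brightness was taken over the arrays other than Control 1, and -1.12 by gene mean. Over the 9 probe sets without an _s_, _a_ or _x_ suffix it was -0.83. It was -0.42 after centring on the median, -0.093 after quantile normalization, and -0.52 to 0.05 with 1 array left out. Quantile normalization turned the sign of Gabarapl1 1416418_PM_at (-0.0021) and 1416419_PM_s_at (0.62), Map1lc3a 1451290_PM_at (0.00097), Becn1 1437006_PM_x_at (-0.012) and Wipi1 1424917_PM_a_at (-0.040), 1438709_PM_at (-0.093) and 1439060_PM_s_at (0.053), and centring on the median turned Wipi1 1438709_PM_at (-0.052). With 1 array left out, the fold change ranged from -0.33 to 0.57 for Gabarapl1 1416418_PM_at, from -4.09 to 0.15 for Map1lc3a 1447883_PM_x_at, from -1.87 to 0.22 for Map1lc3a 1451290_PM_at and from -2.07 to 0.052 for Becn1 1460320_PM_at. For Wipi1 it ranged from -0.40 to 0.59 (1424917_PM_a_at), from -0.0078 to 0.081 (1438709_PM_at), from -0.12 to 1.20 (1452392_PM_a_at) and from -0.34 to 0.26 (1456624_PM_at). In all, 11 of the 19 probe sets changed sign under at least 1 alternative and 8 did not. The causes were not tested. The labels number the arrays without pairing mice, and a replicate block on those numbers called 0 members and 0 of all probe sets, with deviations of same-numbered arrays correlated at -0.124 over probe sets. A block on the crossed numbers, chosen after seeing the data, also called 0 members and 0 of all.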
